A study of Homo sapiens with 16 samples.

Results

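Genes of the axon guidance families, 10 in all, were followed through 2 human colon cancer cell lines: the plexins PLXNA1, PLXNA2, PLXNB1 and PLXNB2, the semaphorins SEMA3C and SEMA3F, the neuropilins NRP1 and NRP2, the netrin NTN1 and the netrin receptor UNC5B. They were taken by symbol, as 10 of the 63677 genes in the count table, and all 10 were found. They had been chosen by measured changes of expression between groups of these libraries, and which comparison chose each gene is not recorded. Their levels and tests are therefore a description, and no count over the 10 supports a pattern.

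SW480 is a line from a primary colon adenocarcinoma and SW620 a line from a lymph node metastasis of the same patient. Messenger RNA was sequenced in 8 groups of 2 libraries, I and II. In SW620 the groups were cells transduced with ERB (ESR2, estrogen receptor beta, a ligand-dependent transcription factor) and given 10 nM estradiol (E2) for 24 h, the same ERB cells given the solvent DMSO for 24 h, ERB cells without treatment, cells with empty vector (EV) and parental cells. In SW480 they were ERB cells, EV cells and parental cells, all untreated. Whether the transduced cells were pools or single clones is not stated in the labels. Nor do they say that libraries I and II came from separate cultures, so each p-value covers the spread between 2 libraries, which may be technical.

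Semaphorins are secreted or membrane-bound guidance cues, and plexins are the receptors that signal for them. Class 3 semaphorins such as SEMA3C and SEMA3F are secreted and in most cases reach A-type plexins through the co-receptors NRP1 and NRP2, which also bind VEGF. PLXNB1 is the receptor of the membrane semaphorin SEMA4D, and PLXNB2 binds SEMA4C. Netrin-1, encoded by NTN1, attracts or repels through DCC and the UNC5 family. DCC and UNC5 receptors are called dependence receptors because they can trigger cell death where netrin is lacking, and loss of DCC was first described in colorectal cancer.

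RefSeq windows of 250 bases before to 50 bases after a gene start (build GRCh38.p14) were found for 7 of the 10 genes, with 11 starts in all. The most upstream window is shown for PLXNA2, SEMA3F and PLXNB1, the 3 of these genes with the highest called rise in the libraries labelled SW480 EV. Sequences are 5′ to 3′ on the gene's strand, and capitals mark the GC box GGGCGG on either strand.
PLXNA2 (chr1:208244335-208244634, minus strand): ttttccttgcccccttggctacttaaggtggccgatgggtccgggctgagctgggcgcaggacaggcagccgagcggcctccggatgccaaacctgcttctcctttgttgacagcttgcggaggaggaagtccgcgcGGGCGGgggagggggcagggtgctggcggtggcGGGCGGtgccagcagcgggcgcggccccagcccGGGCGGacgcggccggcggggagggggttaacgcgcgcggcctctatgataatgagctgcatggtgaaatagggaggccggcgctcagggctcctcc
SEMA3F (chr3:50154808-50155107, plus strand): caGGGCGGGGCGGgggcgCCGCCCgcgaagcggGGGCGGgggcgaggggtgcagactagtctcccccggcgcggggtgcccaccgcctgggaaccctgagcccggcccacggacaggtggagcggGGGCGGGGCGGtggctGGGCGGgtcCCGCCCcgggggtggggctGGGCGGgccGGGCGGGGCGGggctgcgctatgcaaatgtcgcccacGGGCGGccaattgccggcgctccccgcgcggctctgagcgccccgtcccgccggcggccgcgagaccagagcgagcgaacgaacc
PLXNB1 (chr3:48430037-48430336, minus strand): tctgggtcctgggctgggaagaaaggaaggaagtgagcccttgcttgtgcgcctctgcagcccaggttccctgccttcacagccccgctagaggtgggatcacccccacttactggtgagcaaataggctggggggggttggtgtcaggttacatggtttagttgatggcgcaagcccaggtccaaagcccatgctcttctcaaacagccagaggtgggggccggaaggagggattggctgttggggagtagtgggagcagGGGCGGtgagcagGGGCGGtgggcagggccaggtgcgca
The windows held 3 matches of the GC box in PLXNA2, 12 in SEMA3F, of which some overlap each other, and 2 in PLXNB1. Of the 11 windows 9 held at least 1 match, against 45% of the 35116 promoter windows in the table. The estrogen response element GGTCANNNTGACC, present in 0.057% of all windows on either strand, and the AP-1 motif TGANTCA, present in 7.71%, matched in 0 of the 11.

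Library totals ran from 12743940 to 18948283 counts. ESR2 had 180 and 157 reads in SW620 ERB with E2, 165 and 100 in SW620 ERB with DMSO, 162 and 187 in SW620 ERB, 142 and 185 in SW480 ERB, and 0 to 4 reads in each EV or parental library. The libraries labelled SW480 with a vector stood apart from their line. Of 300 genes at least 8-fold higher in parental SW480 than in parental SW620, the median level relative to parental SW480 was 17.1 and 21.0% in SW480 ERB and 2.20 and 2.1% in SW480 EV, against 1.41 to 2.02% in the SW620 libraries. Of 35 genes at least 8-fold higher in parental SW620, the median relative to parental SW620 was 54.4 and 48.3% in SW480 ERB and 28.8 and 66.2% in SW480 EV, against 4.58 and 5.59% in parental SW480. These 4 are called the libraries labelled SW480 ERB and SW480 EV, and in every comparison with parental SW480 the vector and the line content of the libraries cannot be told apart. In bulk libraries, fewer cells of a type and less RNA per cell cannot be told apart either. The epithelial markers EPCAM, CDX2, VIL1, KRT8, KRT18 and CDH1 had reads in all 16 libraries, CDX1 had none in any, and KRT20 and LGALS4 stayed at or under 1.15 CPM (counts scaled to a common library size). Markers of endothelium, fibroblasts and leukocytes stayed low. Their summed level was 0.813 to 6.16 CPM for endothelium, with PECAM1 and CLDN5 at 0. It was 3.89 to 22.3 CPM for fibroblasts, with COL3A1 at 0, and 0.611 to 4.62 CPM for leukocytes. The markers of neurons and glia were not all low: their sum ran from 5.70 to 100.7 CPM, with SYT1 at 4.79 to 100.4 CPM.

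Levels between genes were compared on the authors' FPKM scale, which divides by transcript length. PLXNB2 was the most abundant of the 10 genes in all 8 groups. It reached 119 ± 8.43 FPKM in SW620 ERB with E2 and 70.2 ± 4.70 FPKM in parental SW620 (mean ± SD, n = 2 libraries, as for all FPKM values below). PLXNB1 came second in 7 groups, with 75.7 ± 6.93 FPKM in SW620 ERB with E2 and 52.8 ± 4.93 FPKM in parental SW620. In parental SW480 the second place belonged to PLXNA1, at 39.6 ± 3.02 FPKM, ahead of PLXNB1 at 29.7 ± 4.17 FPKM. Of the plexins among the 10 genes, the B-type ones, which bind class 4 semaphorins without a neuropilin, were thus the highest in 7 groups. SEMA3F came next after them in 6 groups, with 38.4 ± 0.620 FPKM in untreated SW620 ERB cells against 5.77 ± 2.48 FPKM in parental SW480. NTN1, SEMA3C, UNC5B and PLXNA2 shared the bottom of the order in 7 groups, and NTN1 was last in 6 groups. In SW620 ERB with E2, UNC5B at 3.29 ± 0.112 FPKM stood above NRP1 at 2.67 ± 0.395 FPKM. The means of PLXNB2 and PLXNB1 lay less than the sum of their SDs apart in SW620 ERB, SW620 EV and SW480 EV, so their order was not resolved in those groups.

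**Figure D1:**
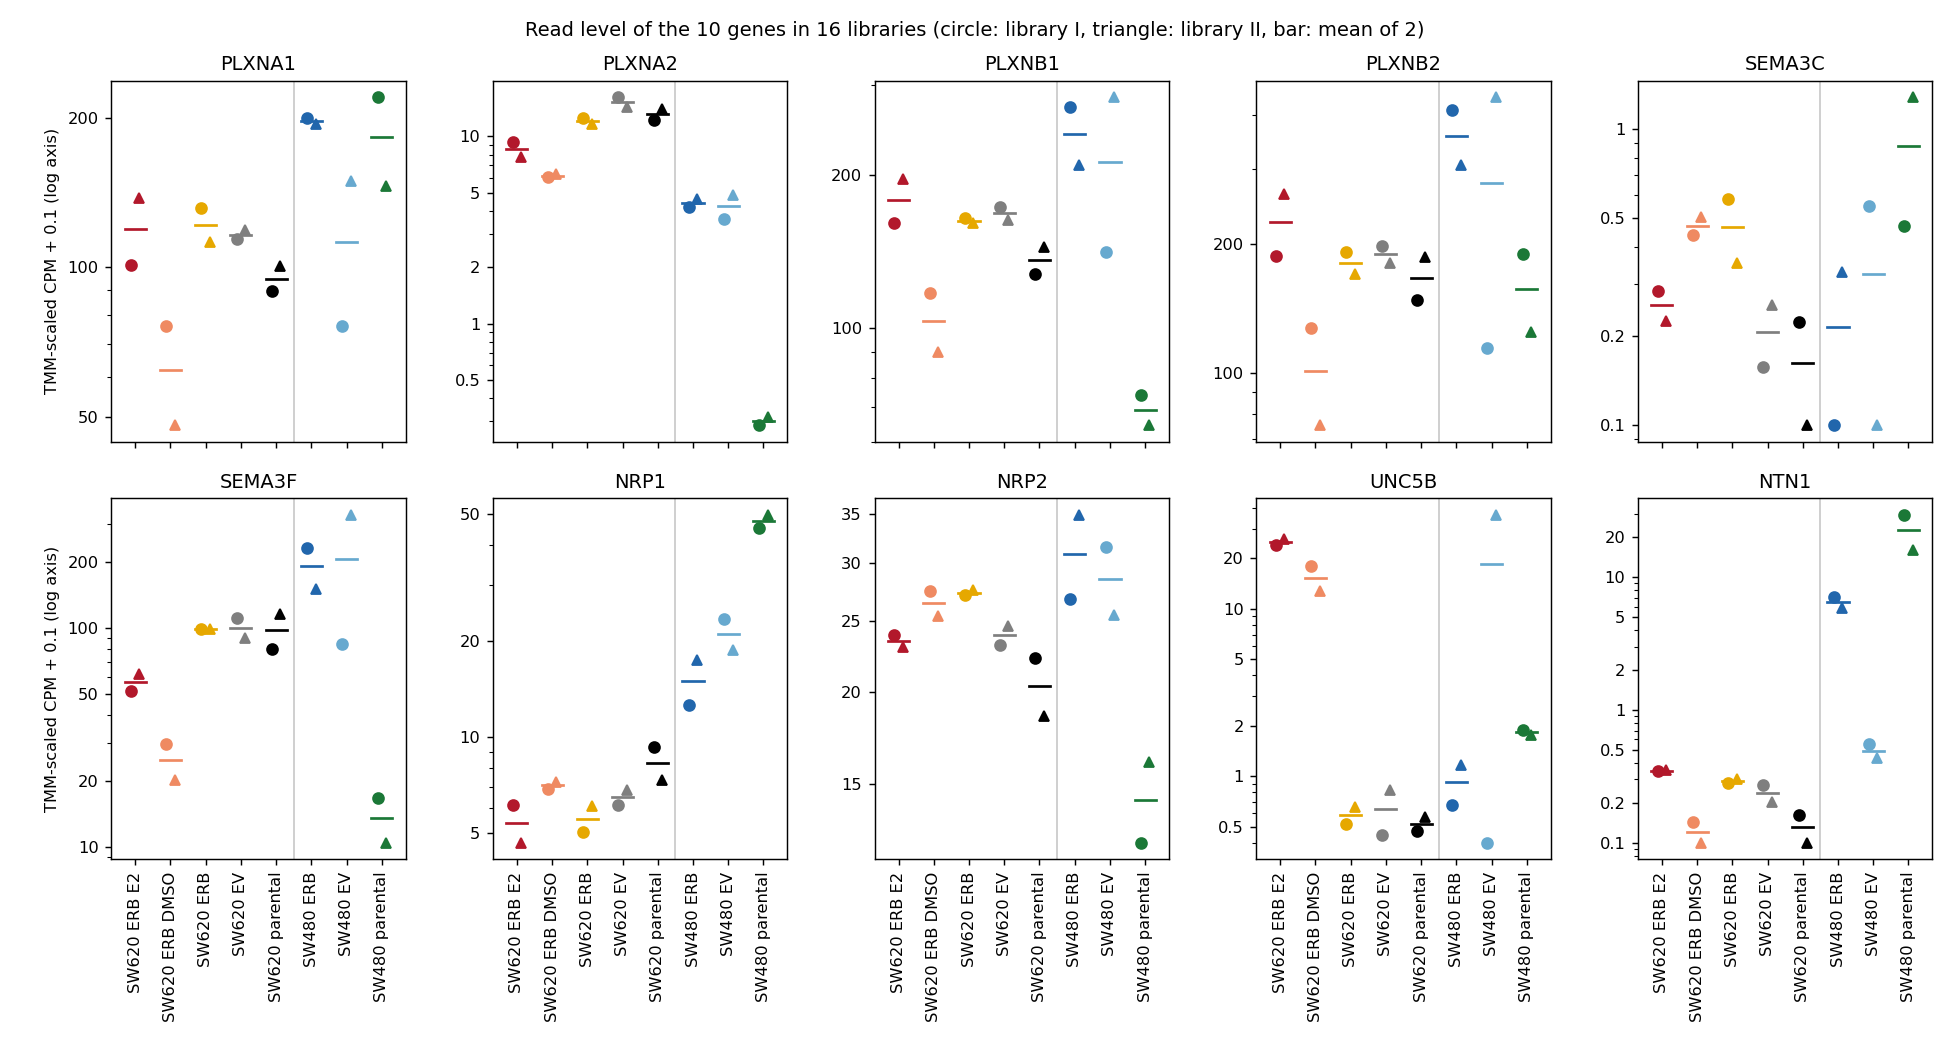
TMM-scaled CPM plus 0.1, on a log axis with its own range in each panel, of the 10 genes in the 8 groups; circles are library I, triangles library II and bars the mean of the 2. PLXNA2 and SEMA3F are lowest and NRP1 and NTN1 highest in parental SW480, and UNC5B is high in the DMSO and E2 libraries and in library II of SW480 EV.

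PLXNA1, a co-receptor with neuropilins for class 3 semaphorins, was measured at 200.3 and 194 CPM (libraries I and II, TMM-scaled, as below) in the libraries labelled SW480 ERB, 76.1 and 149 CPM in those labelled SW480 EV and 219.9 and 145 CPM in parental SW480. In SW620 it had 101 and 138 CPM with E2, 76.1 and 47.9 CPM with DMSO, 131 and 112 CPM in untreated ERB cells, 114 and 119 CPM in EV cells and 89.4 and 100.3 CPM in parental cells. The DMSO libraries held the lowest SW620 values and did not overlap those of untreated ERB cells or of E2. PLXNA1 passed the test in none of the comparisons. The vector effect in SW480 minus that in SW620 missed the threshold (log2 fold change -0.99, SE 0.50, adjusted p = 0.21) and passed on the log2(FPKM + 1) scale, at -1.56 (SE 0.38, adjusted p = 0.033), and with offsets for transcript GC content and length, at -1.05 (SE 0.27, adjusted p = 0.013). DMSO against untreated ERB cells (log2 fold change -0.97, SE 0.36, adjusted p = 0.11) and parental SW620 against parental SW480 (log2 fold change -0.95, SE 0.35, adjusted p = 0.087) missed it too. The second of these passed, as lower in SW620, with the same offsets, at -0.76 (SE 0.19, adjusted p = 0.0072). On the log2(FPKM + 1) scale it was also called lower in SW480 EV than in parental SW480, at -1.33 (SE 0.27, adjusted p = 0.0066).

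PLXNA2, the close relative of PLXNA1, was nearly absent from parental SW480, with 3 and 5 reads. Its level was 12.2 and 13.9 CPM in parental SW620 and 0.185 and 0.218 CPM in parental SW480, a rise in SW620 (log2 fold change 5.95, SE 0.40, adjusted p = 7.3e-06). Libraries labelled SW480 ERB had 4.11 and 4.51 CPM and those labelled SW480 EV 3.53 and 4.79 CPM, above parental SW480 in every library. Both differences passed the test, for SW480 EV against parental SW480 (log2 fold change 4.30, SE 0.39, adjusted p = 4.4e-05) and for SW480 ERB against parental SW480 (log2 fold change 4.35, SE 0.39, adjusted p = 3.1e-04). They also lay below their SW620 counterparts, which had 12.4 and 11.5 CPM in ERB cells and 16.1 and 14.2 CPM in EV cells. PLXNA2 fell in SW480 ERB against SW620 ERB (log2 fold change -1.47, SE 0.31, adjusted p = 0.029) and in SW480 EV against SW620 EV (log2 fold change -1.87, SE 0.31, adjusted p = 0.025). The first of these calls was lost without any 1 of its 4 libraries (adjusted p = 0.104 to 0.244). The second was lost without SW620 EV library I (adjusted p = 0.22) or II (adjusted p = 0.15). Within SW620, PLXNA2 was measured at 9.28 and 7.64 CPM with E2, 5.96 and 6.18 CPM with DMSO and 12.4 and 11.5 CPM in untreated ERB cells, in an order without overlap between the groups. DMSO against untreated ERB cells missed the threshold (log2 fold change -0.98, SE 0.30, adjusted p = 0.070). It passed in DESeq2 (adjusted p = 0.0098), with GC and length offsets (adjusted p = 0.0098) and in a fit of the SW620 libraries alone (adjusted p = 0.0048).

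The 2 deposited tables differ for PLXNA2. The FPKM values in parental SW480 were 0.0837 and 0.321, from 3 and 5 reads, while the library I labelled SW480 ERB had 0.179 FPKM from 36 reads. On the FPKM scale, as log2(FPKM + 1), PLXNA2 in the libraries labelled SW480 EV differed from parental SW480 by 0.34 (SE 0.26, adjusted p = 0.36), which did not pass.

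PLXNB1, the SEMA4D receptor, was measured at 271 and 209 CPM in the libraries labelled SW480 ERB, 141 and 283 CPM in those labelled SW480 EV and 74.0 and 64.5 CPM in parental SW480. Parental SW480 was the lowest group, and no library of the other 2 groups reached down to it. PLXNB1 rose in SW480 ERB against parental SW480 (log2 fold change 1.79, SE 0.33, adjusted p = 0.0037) and in SW480 EV against parental SW480 (log2 fold change 1.61, SE 0.33, adjusted p = 0.0041). In SW620 it had 161 and 196 CPM with E2, 117 and 89.9 CPM with DMSO, 164 and 160.5 CPM in untreated ERB cells, 173 and 163 CPM in EV cells and 127 and 144 CPM in parental cells. On the CPM scale the DMSO libraries were again the lowest of the line. On the FPKM scale they were not, at 61.4 and 60.9 FPKM against 56.2 and 49.3 FPKM in parental SW620. None of the comparisons within SW620 passed for PLXNB1.

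PLXNB2, a B-type plexin widely made by epithelia, had a wide spread within groups. It had 411 and 306 CPM in the libraries labelled SW480 ERB, 114 and 439.7 CPM in those labelled SW480 EV and 189 and 124 CPM in parental SW480. The 2 libraries labelled SW480 EV lay on either side of those of parental SW480. In SW620 the values were 187 and 262 CPM with E2, 127 and 75.3 CPM with DMSO, 191 and 170.5 CPM in untreated ERB cells, 198 and 181 CPM in EV cells and 147 and 186 CPM in parental cells. PLXNB2 passed in none of the comparisons. The nearest was SW480 ERB against parental SW480 (log2 fold change 1.19, SE 0.51, adjusted p = 0.070), and E2 against DMSO gave 1.15 (SE 0.51, adjusted p = 0.24) on the log2 scale.

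SEMA3F, a secreted repellent that binds NRP2 and is known as a tumour suppressor of the short arm of chromosome 3, was a low message in parental SW480 and an abundant one elsewhere. Parental SW620 had 80.1 and 116 CPM and parental SW480 16.6 and 10.4 CPM, a rise in SW620 (log2 fold change 2.87, SE 0.54, adjusted p = 0.0032). The libraries labelled SW480 ERB had 232 and 152 CPM and those labelled SW480 EV 84.6 and 329 CPM. All 4 lay above parental SW480, and on this TMM scale 3 of them above every SW620 library. The TMM factors were lowest in SW480 EV library II, at 0.585, and SW480 ERB library I, at 0.622. On the FPKM scale the values were 51.1 and 40.8 FPKM in SW480 ERB and 37.8 and 65.4 FPKM in SW480 EV. The highest SW620 library, EV library I, had 41.3 FPKM, so SW480 ERB library II and SW480 EV library I did not exceed it. SEMA3F rose in SW480 ERB against parental SW480 (log2 fold change 3.83, SE 0.57, adjusted p = 0.0017) and in SW480 EV against parental SW480 (log2 fold change 3.94, SE 0.57, adjusted p = 5.7e-04). The summed level of the 10 epithelial markers, most of it from KRT8 and KRT18, moved with SEMA3F across these libraries. The sum was 25126 and 13732 CPM in SW480 ERB, 7441 and 25907 CPM in SW480 EV, against 4989 and 2624 CPM in parental SW480. The 13 mitochondrially encoded messages were also above parental SW480 in all 4 libraries, but not in the same order as SEMA3F throughout. Their sum was 81923 and 49095 CPM in SW480 ERB, 49496 and 122699 CPM in SW480 EV and 31125 and 32888 CPM in parental SW480. The part of the epithelial and mitochondrial messages in the SEMA3F values was not tested.

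In SW620 the lowest SEMA3F levels were in treated cells. It had 51.5 and 61.7 CPM with E2, 29.6 and 20.1 CPM with DMSO, 99.0 and 98.9 CPM in untreated ERB cells and 111 and 90.6 CPM in EV cells. The DMSO libraries were lowest, the E2 libraries lay between them and the untreated cells, and the 3 ERB groups did not overlap. SEMA3F fell in DMSO-treated against untreated ERB cells (log2 fold change -1.99, SE 0.52, adjusted p = 0.045). This call was lost when any 1 of its 4 libraries was left out (adjusted p = 0.172 to 0.309) and kept in a fit of the SW620 libraries alone, at -1.99 (SE 0.23, adjusted p = 3.1e-04). E2 against DMSO gave 1.19 (SE 0.51, adjusted p = 0.24) and E2 against untreated ERB cells -0.81 (SE 0.51, adjusted p = 0.52) as log2 fold changes, neither past the threshold.

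SEMA3C, a class 3 semaphorin studied as a growth-promoting cue in several carcinomas, was close to undetected. It had 0 to 27 reads per library, failed the filter on low counts and was not tested. Parental SW620 held 2 and 0 reads and parental SW480 6 and 27 reads, so that 1 library gave most of the reads of its group. By reads over both libraries parental SW480 was 13.5-fold higher than parental SW620, with a 95% counting interval of 3.44 to 116 that covers counting error only. The FPKM scale did not show this, with 0.205 ± 0.224 FPKM in parental SW620 and 0.209 ± 0.0899 FPKM in parental SW480. The 2 deposited tables thus differ for SEMA3C too.

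NRP1, the neuropilin that SEMA3A and VEGFA bind, ran opposite to SEMA3F across the lines. It had 9.24 and 7.24 CPM in parental SW620 and 45.3 and 49.8 CPM in parental SW480, a fall in SW620 (log2 fold change -2.53, SE 0.33, adjusted p = 3.0e-04). Libraries labelled SW480 ERB had 12.5 and 17.4 CPM and those labelled SW480 EV 23.4 and 18.7 CPM, between the parental lines and without overlap with either. NRP1 fell in SW480 ERB against parental SW480 (log2 fold change -1.66, SE 0.32, adjusted p = 0.0044) and in SW480 EV against parental SW480 (log2 fold change -1.17, SE 0.31, adjusted p = 0.017). With offsets for GC content and length, which moved the median over all genes by 0.17 in the first and 0.30 in the second of these comparisons on the log2 scale, the values were -0.54 (SE 0.27, adjusted p = 0.13) and -0.18 (SE 0.27, adjusted p = 0.61), so neither call held. The first was also lost without SW480 ERB library I (adjusted p = 0.057), and the second without SW480 EV library II (adjusted p = 0.070) or parental library II (adjusted p = 0.080).

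Against SW620 with the same construct NRP1 rose, in SW480 ERB against SW620 ERB (log2 fold change 1.45, SE 0.32, adjusted p = 0.038) and in SW480 EV against SW620 EV (log2 fold change 1.72, SE 0.32, adjusted p = 0.0474). The first call was lost without any 1 of its 4 libraries (adjusted p = 0.0947 to 0.398). The second was lost without SW620 EV library I (adjusted p = 0.53) or II (adjusted p = 0.47) or without SW480 EV library II (adjusted p = 0.0591). Within SW620 the level was 6.05 and 4.57 CPM with E2, 6.81 and 7.16 CPM with DMSO, 4.94 and 5.99 CPM in untreated ERB cells and 6.04 and 6.73 CPM in EV cells. These SW620 groups were close to one another, and none of their comparisons passed for NRP1.

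NRP2, the neuropilin of SEMA3F, varied least of the 9 tested genes, with a range of 1.11 between the lowest and highest group mean on the log2 scale. It had 26.7 and 34.8 CPM in the libraries labelled SW480 ERB, 31.5 and 25.4 CPM in those labelled SW480 EV and 12.4 and 15.97 CPM in parental SW480, again the lowest group. NRP2 rose in SW480 ERB against parental SW480 (log2 fold change 1.12, SE 0.28, adjusted p = 0.012) and in SW480 EV against parental SW480 (log2 fold change 1.0, SE 0.28, adjusted p = 0.021). The first call was lost without SW480 ERB library I (adjusted p = 0.0587) or II (adjusted p = 0.06), the second without parental library I (adjusted p = 0.076). The SW620 libraries ran from 18.4 CPM in a parental to 27.4 CPM in an ERB library, with 23.8 and 22.9 CPM under E2 and 27.4 and 25.3 CPM under DMSO, and none of the comparisons within SW620 passed for NRP2.

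NTN1, the netrin-1 gene, spanned the widest range of the 9 tested genes, 7.24 on the log2 scale of group means. It had 1 and 0 reads in parental SW620 and 476 and 364 reads in parental SW480, which is 0.0620 and 0 CPM against 29.4 and 15.9 CPM. Parental SW480 was 685-fold higher than parental SW620, with a 95% counting interval of 123 to 27098, and NTN1 passed as lower in SW620 (adjusted p = 1.9e-05). Of NTN1, the libraries labelled SW480 ERB had 6.96 and 5.81 CPM and those labelled SW480 EV 0.451 and 0.334 CPM, so the 3 groups of this line lay in 3 separate ranges. NTN1 rose in SW480 ERB against SW480 EV (log2 fold change 3.97, SE 0.54, adjusted p = 0.0038) and fell against parental SW480 both in SW480 ERB (log2 fold change -1.83, SE 0.43, adjusted p = 0.010) and in SW480 EV (log2 fold change -5.80, SE 0.56, adjusted p = 6.6e-05). The fall in SW480 ERB was lost without SW480 ERB library I (adjusted p = 0.069).

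The 300 genes high in parental SW480 had a like order. NTN1 stood at 30.7 and 25.6% of its parental SW480 mean in SW480 ERB and at 1.99 and 1.47% in SW480 EV, beside medians of 17.1 and 21.0% and of 2.20 and 2.1% for the 300 genes. ERB and the line content of the libraries cannot be told apart in this comparison. In SW620, where the line content did not differ in this way, NTN1 had 3 and 4 reads in ERB and 3 and 2 reads in EV cells. The difference there did not pass (log2 fold change 0.47, SE 0.71, adjusted p = 1). E2-treated cells had 4 and 4 reads and DMSO-treated cells 1 and 0 reads, a ratio of 7.96 with a 95% counting interval of 1.07 to 353 (adjusted p = 0.24 in the all-gene fit). SW480 ERB against SW620 ERB passed for NTN1 (log2 fold change 4.99, SE 0.56, adjusted p = 7.9e-04).

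**Figure D2:**
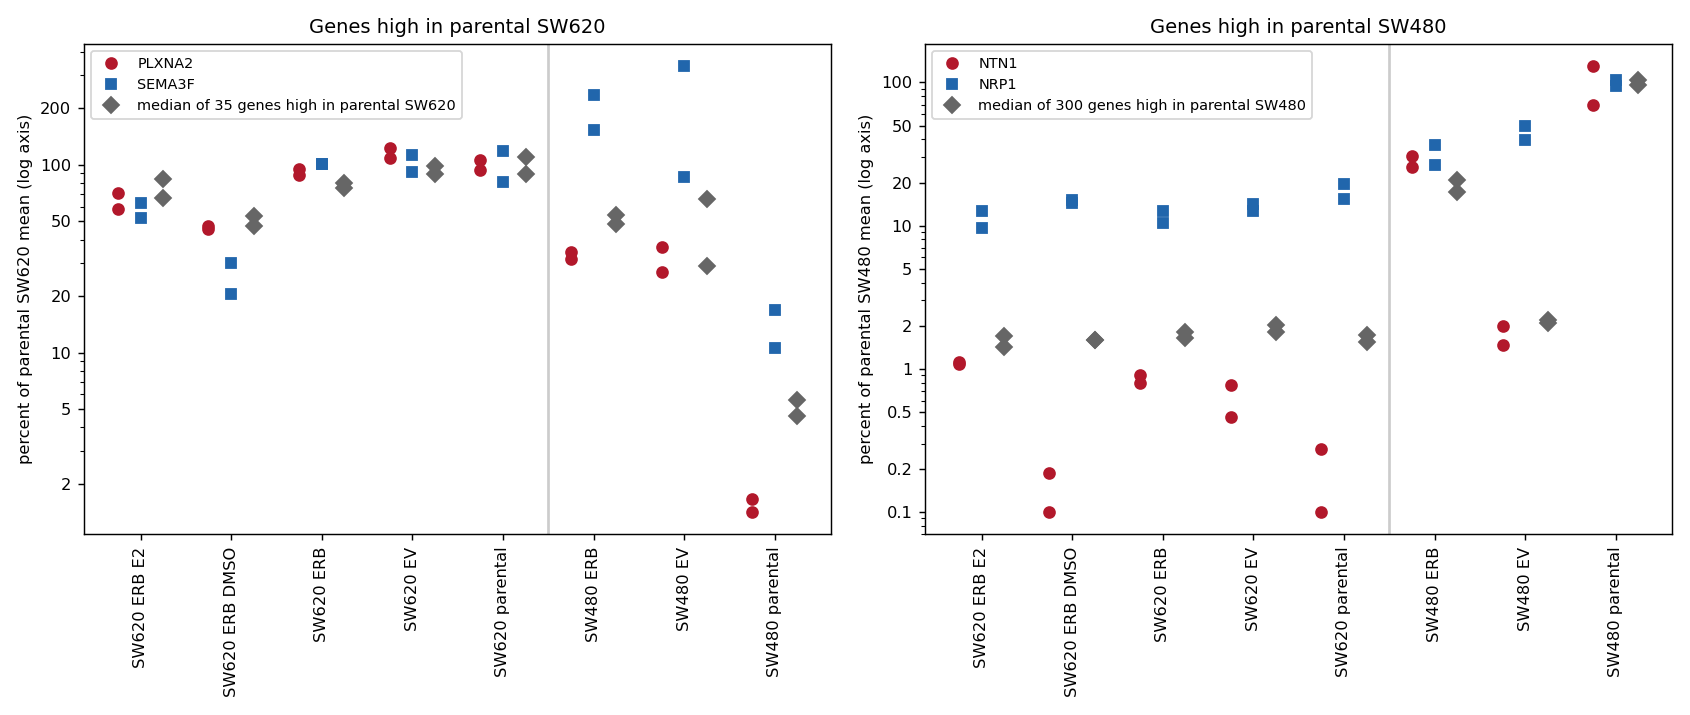
Level of PLXNA2 and SEMA3F relative to their mean in parental SW620 (left) and of NTN1 and NRP1 relative to their mean in parental SW480 (right), in percent on a log axis, 2 points per group, beside the median of the 35 and 300 genes high in that line; values under 0.1% are drawn at 0.1%. In SW480 EV NTN1 lies at 1.99 and 1.47%, next to the 300-gene median, while NRP1 lies at 49.3 and 39.3%.

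UNC5B, a netrin receptor of the dependence type, was low in 11 libraries and high in 5. It had 23.9 and 26.1 CPM in SW620 ERB cells with E2, 17.8 and 12.6 CPM with DMSO and 0.422 and 0.559 CPM untreated. In EV cells it had 0.348 and 0.725 CPM and in parental SW620 0.372 and 0.467 CPM. The treated libraries stood clear of all untreated SW620 libraries. UNC5B rose in DMSO-treated against untreated ERB cells (log2 fold change 4.93, SE 1.33, adjusted p = 0.0493). E2 against untreated ERB cells had a larger fitted difference that missed the threshold (log2 fold change 5.64, SE 1.36, adjusted p = 0.0582) and passed in DESeq2 (adjusted p = 7.7e-05). E2 against DMSO gave a log2 fold change of 0.71 (SE 1.07, adjusted p = 0.64). The DMSO call was lost when any 1 of its 4 libraries was left out (adjusted p = 0.176 to 0.275), while a fit of the SW620 libraries alone gave 4.93 (SE 0.36, adjusted p = 4.1e-05).

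The libraries labelled SW480 EV disagreed on UNC5B, with 0.300 and 36.2 CPM in libraries I and II, against 0.570 and 1.07 CPM in SW480 ERB and 1.79 and 1.66 CPM in parental SW480. SW480 EV passed as higher than parental SW480 (log2 fold change 3.39, SE 1.20, adjusted p = 0.0494), although its 2 libraries lay on either side of the parental ones. Without SW480 EV library II the value was -2.50 (SE 0.62, adjusted p = 0.018), in the opposite direction. Without library I it was 4.38 (SE 0.42, adjusted p = 4.1e-05). Leaving out parental library I or II also ended the call (adjusted p = 0.12 and 0.23).

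UNC5B was high in the same 5 libraries as genes of the amino acid and endoplasmic reticulum stress response. The summed level of 8 such genes (DDIT3, ATF4, CHAC1, TRIB3, ASNS, DDIT4, SESN2 and INHBE, listed after the libraries had been seen) was 5341 and 5703 CPM with E2, 3256 and 3164 CPM with DMSO and 5690 CPM in SW480 EV library II. It ran from 295 to 902 CPM in the other 11 libraries, SW480 EV library I among them at 690.1 CPM. All 8 had reads in all 16 libraries. The part of this response in the UNC5B values was not tested.

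**Figure D3:**
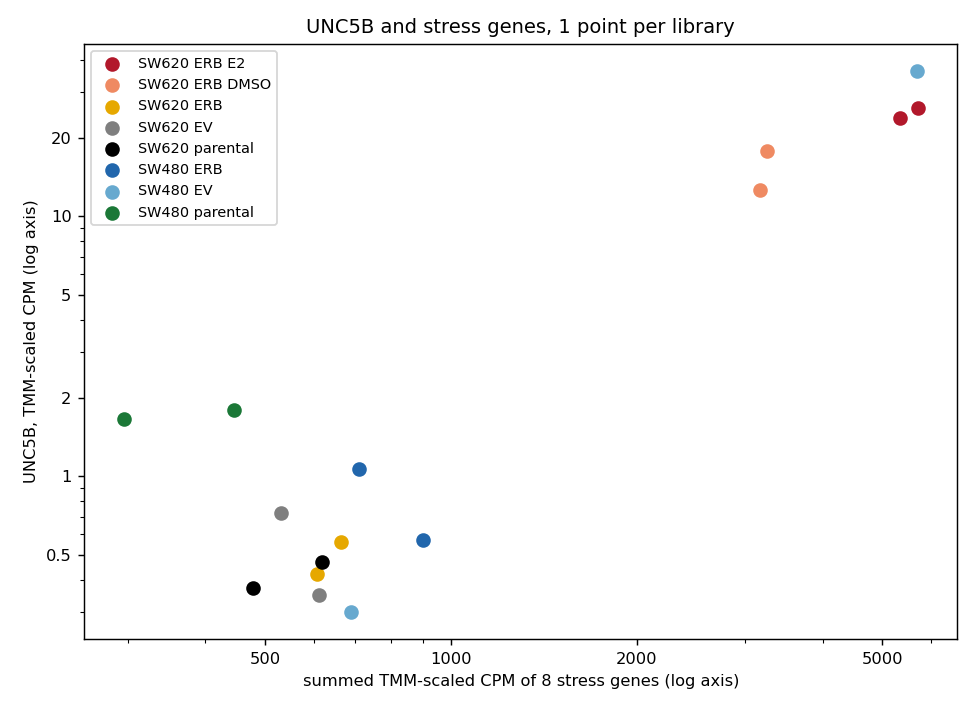
UNC5B against the summed level of 8 stress genes, both as TMM-scaled CPM on log axes, 1 point per library, coloured by group. The 5 libraries at 3164 CPM or more of the stress genes are those with UNC5B at 12.6 CPM or more, and the other 11 lie at 902 CPM or less and at 1.79 CPM or less.

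Few of these genes were called for ERB. In SW620, ERB against EV called 0 of the 9 tested genes in edgeR, with 0 at an unadjusted p under 0.05 (against 0.538% of all genes), while 0.00573% of all genes (0.00573% higher and 0% lower) passed. Libraries did not overlap for 4 of 9, against 22.5% of all genes. DESeq2 also called 0 of the 9. In SW480, ERB against EV called 1 of 9, NTN1 as higher, against 1.1% of all genes (1.1% higher and 0% lower). Libraries did not overlap for 3 of 9, against 22.8% of all genes. The call for NTN1 was lost on the log2(FPKM + 1) scale, which called 0 of 9 against 0.881% of all genes. A fit of the SW480 libraries alone called 0% of all genes here and says nothing about NTN1. UNC5B missed the threshold, at -4.42 (SE 1.31, adjusted p = 0.19), and rests on SW480 EV library II. Its value was -5.39 (SE 0.45, adjusted p = 2.5e-04) without library I, which passes, and 1.41 (SE 0.66, adjusted p = 0.13) without library II, in the other direction. It also passed in DESeq2 (adjusted p = 0.0055) and with GC and length offsets (adjusted p = 0.041). Other differences that did not pass, as log2 fold changes, were 0.81 (SE 0.35, adjusted p = 0.49) for PLXNA1, -0.49 (SE 0.31, adjusted p = 0.63) for NRP1 and -0.11 (SE 0.50, adjusted p = 0.95) for SEMA3F. The ERB effect in SW480 minus that in SW620 passed for 0 of 9, against 0.189% of all genes (0.189% higher and 0% lower). Of the 9, 2 had an unadjusted p under 0.05, UNC5B and NTN1, against 4.48% of all genes.

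The treatments of SW620 ERB cells were compared in pairs. The libraries do not show whether treated and untreated cells were otherwise handled alike. Between these, solvent and handling cannot be told apart. E2 against DMSO, the comparison of estradiol with its solvent, called 0 of 9 in edgeR, as it did over all genes (0%), and 0 of 9 in DESeq2. At an unadjusted p under 0.05 there were 5 of 9, against 19.9% of all genes: NTN1, SEMA3F, PLXNB2, PLXNA1 and PLXNB1, all higher with E2. A fit of the SW620 libraries alone called 5 of 9, SEMA3F, PLXNA1, PLXNB1, PLXNB2 and UNC5B, but also 53% of all genes, so the count is near the background. DMSO against untreated ERB cells called 2 of 9, UNC5B higher and SEMA3F lower, against 6.15% of all genes (2.39% higher and 3.76% lower). The fit of SW620 alone called 6 of 9, the 4 plexins as lower in addition, against 48.8% of all genes (25.2% lower). E2 against untreated ERB cells called 0 of 9, against 1.73% of all genes (1.06% higher and 0.67% lower), with 1 at an unadjusted p under 0.05 (against 14.9% of all genes), and 1 in DESeq2, UNC5B (against 6.25%). Libraries did not overlap for 9 of 9, against 80.7% of all genes, between E2 and DMSO. They did not overlap for 8 of 9, against 81.3% of all genes, between DMSO and untreated ERB cells, and for 5 of 9, against 69.8% of all genes, between E2 and untreated ERB cells, so separate ranges are the common case here. The 3 comparisons share their libraries in pairs, so the values are side by side and not independent. The 4 plexins had log2 fold changes of 0.94 for PLXNA1, 0.48 for PLXNA2, 0.78 for PLXNB1 and 1.15 for PLXNB2 for E2 against DMSO and of -0.97 for PLXNA1, -0.98 for PLXNA2, -0.65 for PLXNB1 and -0.84 for PLXNB2 for DMSO against untreated ERB cells. These values are on the TMM scale, whose factors were highest in the DMSO libraries, at 1.354 and 1.361. PLXNB2 had 74.5 ± 3.25 FPKM with DMSO and 74.4 ± 4.25 FPKM in untreated ERB cells. The FPKM means of PLXNA1, PLXNA2 and PLXNB1 were lower with DMSO.

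Markers of neurons and glia moved with the DMSO libraries. Their summed level was 47.8 and 38.4 CPM with E2, 99.1 and 100.7 CPM with DMSO and 35.1 and 30.8 CPM in untreated ERB cells, most of it from SYT1, which reached 100.4 CPM, with ELAVL4 at 0. The summed level of the epithelial markers, most of it from KRT8 and KRT18, stood at 6043 and 7144 CPM with E2, 3422 and 3001 CPM with DMSO and 8930 and 8892 CPM in untreated ERB cells. Their part in the differences was not tested.

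The empty vector was without a called gene among the 9 in SW620 (EV against parental), where 0% of all genes passed in edgeR, 0 of the 9 had an unadjusted p under 0.05 (against 1.58% of all genes) and DESeq2 called 0 of the 9. Libraries did not overlap for 6 of 9, against 24.5% of all genes. In SW480, EV against parental called 7 of 9, against 30.9% of all genes (14.9% higher and 16% lower). PLXNA2, PLXNB1, SEMA3F, NRP2 and UNC5B were higher, NRP1 and NTN1 lower. ERB against parental SW480 called 6 of 9, against 44.4% of all genes (19.5% higher and 24.9% lower), which were the same genes without UNC5B and in the same directions. Libraries did not overlap for 6 of 9, against 49.5% of all genes, in the first of these and for 8 of 9, against 74.3% of all genes, in the second. Both share the parental libraries, and in a fit of the SW480 libraries alone EV against parental called 3 of 9, against 4.39% of all genes. That fit called 0% of all genes for ERB against parental, so its 0 of 9 says nothing about these genes. The vector effect in SW480 minus that in SW620 passed for 3 of 9, against 7.2% of all genes (3.01% higher and 4.2% lower). They were PLXNA2 (log2 fold change 4.08, SE 0.48, adjusted p = 8.9e-04), SEMA3F (log2 fold change 3.91, SE 0.74, adjusted p = 0.0092) and NTN1 (adjusted p = 0.0029), whose fitted size rests on 1 read in parental SW620. The call for SEMA3F was lost without SW620 EV library II (adjusted p = 0.063).

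Between the lines, parental SW620 against parental SW480 called 4 of 9, against 18% of all genes (6.84% higher and 11.2% lower). PLXNA2 and SEMA3F were higher, NRP1 and NTN1 lower, and libraries did not overlap for 8 of 9, against 54.4% of all genes. SW480 EV against SW620 EV called 2 of 9, against 0.326% of all genes (0.0229% higher and 0.303% lower), and SW480 ERB against SW620 ERB called 3 of 9, against 2% of all genes (1.71% higher and 0.292% lower). Libraries did not overlap for 4 of 9, against 26.8% of all genes, with EV and for 8 of 9, against 75.9% of all genes, with ERB. In these, PLXNA2 was lower and NRP1 higher in SW480, and NTN1 was also higher in SW480 ERB. Leaving out SW480 EV library I brought the EV count to 5, with SEMA3F, PLXNB2 and UNC5B added and PLXNA2 and NRP1 kept, and leaving out SW620 EV library I or II brought it to 0.

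**Figure D4:**
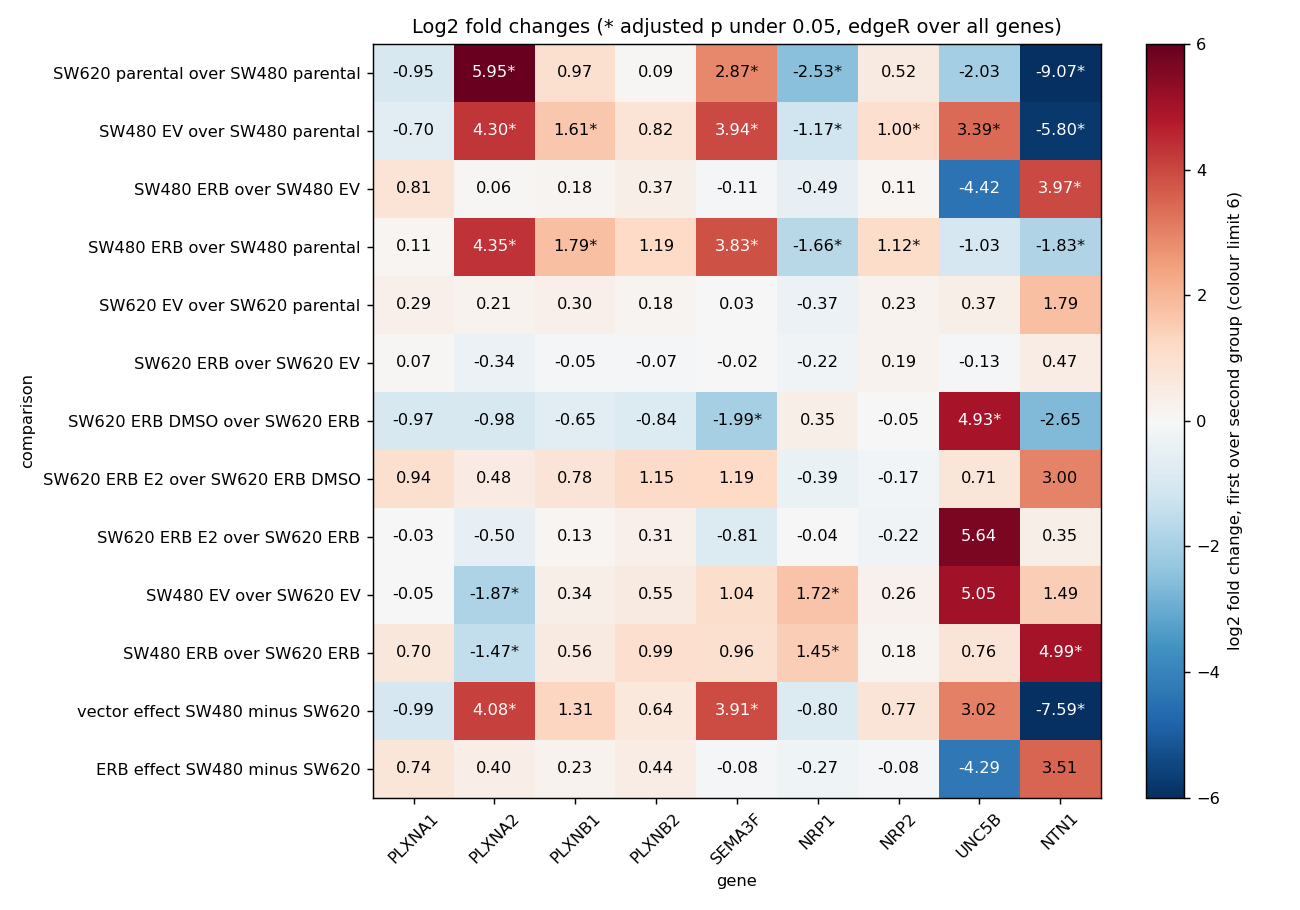
Log2 fold changes of the 9 tested genes in 13 comparisons, first over second named group, with blue for lower and red for higher and a star at an adjusted p under 0.05; the last 2 lines are differences of 2 fold changes. PLXNA2 and SEMA3F are called higher in all 3 comparisons with parental SW480 as the second group, and within SW620 the stars are those of UNC5B and SEMA3F for DMSO; NTN1 values with 0 to 3 reads in a group depend on the prior count of the fit.

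The wider guidance system was described with 95 other genes: further plexins, semaphorins, netrins and their receptors, repulsive guidance molecules, slits and roundabouts, and the partners of plexins, neuropilins and netrin receptors. Of these, 75 passed the filter on low counts. Several ligands and receptors had hardly any reads. DCC, the attractive netrin receptor, had 9 reads over all 16 libraries, UNC5C had 0 and UNC5D 2. NEO1, which encodes the DCC relative neogenin, had 24.9 to 75.8 CPM. KDR, the main VEGF receptor of endothelium, had 1 read in all, and FLT4 had 7. PLXND1, the receptor of SEMA3E, had 39.8 to 360 CPM, while SEMA3E had 2 reads in all.

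Parental SW620 against parental SW480 called 22 of the 75 guidance genes (29.3%, against 18% of all genes), 8 higher and 14 lower, with a median log2 fold change over the 75 of -0.18, against -0.05 over all genes. Higher in SW620 were the kinase genes FYN (log2 fold change 1.45, SE 0.25, adjusted p = 0.0019) and PAK1 (log2 fold change 1.28, SE 0.24, adjusted p = 0.0029). DPYSL3, a cytoskeletal adaptor of the collapsin response family, had 251 ± 3.12 CPM in parental SW620 and 83.9 ± 15.95 CPM in parental SW480 (mean ± SD, n = 2). MAGED1, a partner of UNC5 receptors, and SEMA4G, a membrane semaphorin, also rose. UNC5A, the relative of UNC5B, fell in SW620, with 0.707 ± 0.211 CPM against 9.46 ± 3.56 CPM in parental SW480 (log2 fold change -3.74, SE 0.56, adjusted p = 7.4e-04). SEMA5A, a membrane semaphorin, had 0 reads in parental SW620 and 394 in parental SW480, at least 107-fold lower in SW620 when 3 reads over both libraries are taken as the floor. NTNG2, a membrane-anchored netrin, had 2 reads against 80, which makes parental SW480 32.6-fold higher with a 95% counting interval of 8.74 to 274. Lower as well were ABLIM1, which binds actin (log2 fold change -3.26, SE 0.50, adjusted p = 8.1e-04), and DPYSL5 (log2 fold change -3.68, SE 0.50, adjusted p = 3.7e-04). The netrin genes NTN1 and NTNG2 and the receptor gene UNC5A were thus each called lower in parental SW620.

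In the libraries labelled SW480 EV, 28 of the 75 differed from parental SW480 (37.3%, against 30.9% of all genes), 14 in each direction, with a median of -0.20, against -0.11 over all genes. PAK1 had 151 ± 20.1 CPM in SW480 EV and 19.4 ± 2.06 CPM in parental SW480 (log2 fold change 2.96, SE 0.25, adjusted p = 3.1e-05). RGMA, a repulsive ligand of neogenin, had 75.2 ± 62.6 CPM in SW480 EV and 6.32 ± 0.234 CPM in parental SW480 (log2 fold change 3.57, SE 0.58, adjusted p = 0.0012), with a wide spread between the 2 EV libraries. SEMA4G, FYN and MAGED1 rose too. SEMA4D, the ligand of PLXNB1, fell while its receptor rose, with 7.92 ± 0.807 CPM in SW480 EV and 26.1 ± 1.22 CPM in parental SW480 (log2 fold change -1.72, SE 0.29, adjusted p = 0.0014). ROBO3, a slit receptor family member, had 0 reads in SW480 EV and 143 in parental SW480, at least 39.7-fold lower. DPYSL5 had 3 reads against 791, and parental SW480 was 219.5-fold higher with a 95% counting interval of 74.8 to 1067. CRMP1 (log2 fold change -2.34, SE 0.35, adjusted p = 6.4e-04) and ABLIM1 (log2 fold change -3.44, SE 0.50, adjusted p = 6.2e-04) fell. ERB against parental SW480 called 31 of 75 (41.3%, against 44.4% of all genes), 16 higher and 15 lower, with a median of -0.10, against -0.13 over all genes. There SEMA4D fell again (log2 fold change -1.34, SE 0.28, adjusted p = 0.0063), and ROBO4 fell with 7 reads in SW480 ERB against 143 in parental SW480.

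**Figure D5:**
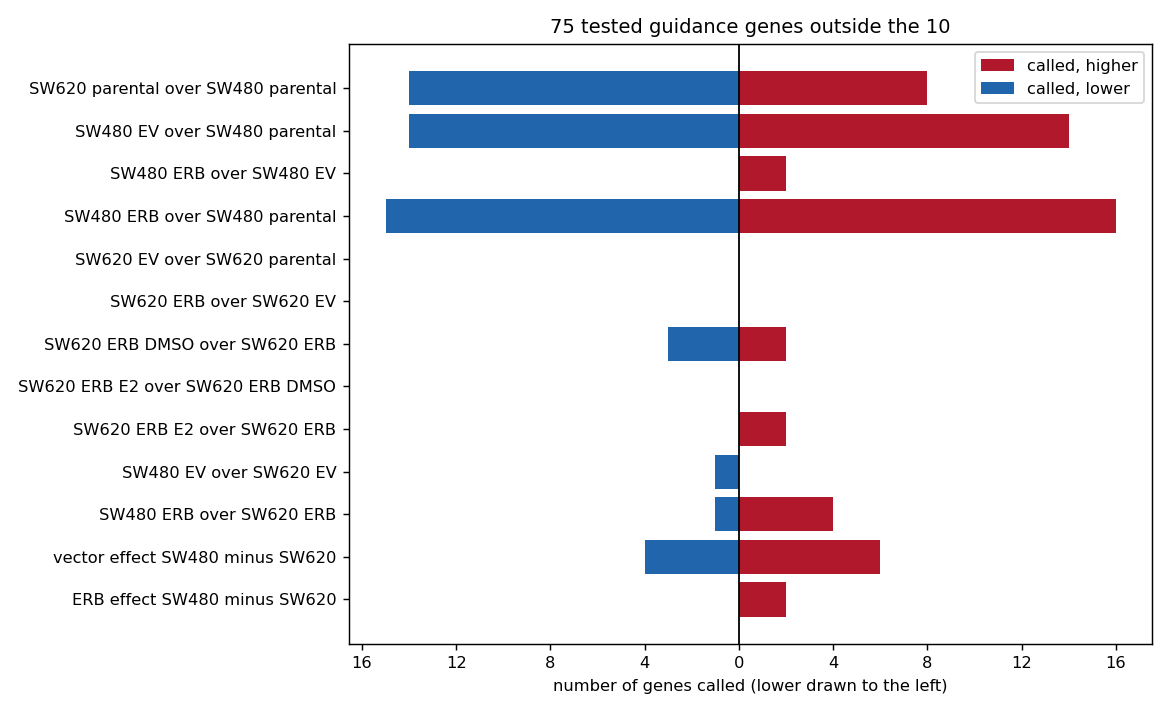
Number of the 75 tested guidance genes called higher (right) or lower (left) at an adjusted p under 0.05 in each of 13 comparisons, first over second named group. The bars reach 16 higher and 15 lower for SW480 ERB over parental SW480 and are empty for EV and ERB in SW620 and for E2 over DMSO.

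The libraries labelled SW480 ERB differed from SW480 EV in 2 of the 75 (2.67%, against 1.1% of all genes), both of the collapsin response family that relays semaphorin signals to microtubules. CRMP1 had 33.7 ± 5.82 CPM in SW480 ERB and 7.49 ± 2.31 CPM in SW480 EV (log2 fold change 2.17, SE 0.34, adjusted p = 0.0085). DPYSL5 had 212 reads against 3, a ratio of 69.4 with a 95% counting interval of 23.4 to 339. CRMP1 and DPYSL5 were also called in the ERB effect of SW480 minus that of SW620, 2 of 75 (2.67%, against 0.189% of all genes). Parental SW480 had 38.0 ± 11.8 CPM of CRMP1 and 21.3 ± 8.75 CPM of DPYSL5, above SW480 EV for each. ERB and the line content of the libraries cannot be told apart for these 2 genes in either comparison. In SW620, ERB against EV called 0 of 75 in edgeR (1 at an unadjusted p under 0.05, against 0.538% of all genes) and EV against parental 0 (3 at an unadjusted p under 0.05, against 1.58%). SW480 ERB against SW620 ERB called 5 of 75 (6.67%, against 2% of all genes), with DPYSL5, UNC5A, NTNG2 and ROBO3 higher and ROBO2 lower. SW480 EV against SW620 EV called 1, CRMP1, which was lower (log2 fold change -2.12, SE 0.34, adjusted p = 0.024). The vector effect in SW480 minus that in SW620 passed for 10 of 75 (13.3%, against 7.2% of all genes), 6 higher and 4 lower, with PAK1 (log2 fold change 2.15, SE 0.34, adjusted p = 0.0035) and UNC5A (log2 fold change -4.25, SE 0.78, adjusted p = 0.0082) among them.

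DMSO against untreated ERB cells called 5 of the 75 (6.67%, against 6.15% of all genes), with a median log2 fold change over the 75 of -0.31, against 0.00 over all genes. VEGFA, the ligand that NRP1 and NRP2 share with semaphorins, had 162 ± 13.6 CPM with DMSO and 14.6 ± 0.315 CPM untreated (log2 fold change 3.47, SE 0.50, adjusted p = 0.0067). SEMA3D, a further secreted semaphorin, had 4.22 ± 0.0704 CPM with DMSO and 0.525 ± 0.0241 CPM untreated (log2 fold change 2.99, SE 0.81, adjusted p = 0.0497). Lower with DMSO were SEMA3G (log2 fold change -1.54, SE 0.36, adjusted p = 0.031), MAGED1 (log2 fold change -1.28, SE 0.31, adjusted p = 0.036) and CFL1, the actin-severing cofilin (log2 fold change -1.90, SE 0.50, adjusted p = 0.044). E2 against untreated ERB cells called 2 (2.67%, against 1.73% of all genes), VEGFA (log2 fold change 3.37, SE 0.50, adjusted p = 0.011) and MICAL2, an actin-oxidising enzyme (log2 fold change 1.24, SE 0.28, adjusted p = 0.0466). E2 against DMSO called 0 of 75 in edgeR, with 19 at an unadjusted p under 0.05 (against 19.9% of all genes) and a median of 0.38, against 0.06 over all genes. VEGFA was thus high in both treated groups, at 150.4 ± 10.1 CPM with E2.

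The genes whose group means ran most like those of NTN1, the gene with the widest range, were CCDC3, PRR5L, AK5, TMEM92 and CRYGN, with Pearson r of 0.989 to 0.991 over 8 group means of log2 CPM among 12599 genes. For 2 more genes, chosen after their values were seen, the same measure gave ATF3, POLR3C, CBS, CEBPB and TSC22D3 as most like UNC5B (r of 0.972 to 0.987) and GRAMD1B, SHC3, KCNK10, LPXN and AKR1C2 as most like PLXNA2 (r of 0.985 to 0.990). These r describe 8 groups of shared libraries and depth, and carry no test.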

How the data were processed

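Libraries were made with a stranded mRNA kit, per the labels' protocols, and the submitters' processing notes name TopHat2 2.0.4, SAMtools, Picard 1.29, HTSeq 0.6.1, Cufflinks 2.1.1 and build GRCh37. Neither these nor the labels say which tool made which table or whether strand was used in counting. The deposited values are raw gene counts in one table and FPKM, scaled by depth and length by the authors, in the other. Counts were tested with edgeR 4.0.16 (quasi-likelihood, TMM scaling, limma 3.58.1, R 4.3.3) over 8 groups and all 16 libraries, keeping 17464 genes that passed filterByExpr, with Benjamini-Hochberg adjustment over all of them and a threshold of 0.05. CPM values are TMM-scaled. Of the 10 genes, 9 passed the filter. The depth of 12743940 to 18948283 counts sets the precision; counting intervals (95%) and the floor of 3 reads cover counting error only. Alternatives were DESeq2 1.42.0, other scaling and filters, limma on log2(FPKM + 1) or log2(FPKM + 0.1), GC and length offsets, a replicate block, fits of 1 line and leaving out libraries. The tests were tested on simulated data. The genes and lists were chosen with earlier results of these data known. Other guidance genes were named as up to 5 called per direction with the lowest adjusted p in each comparison. Outside this rule, DCC, UNC5C, UNC5D, NEO1, KDR, FLT4, PLXND1 and SEMA3E were named with their levels only.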

Additional observations from a re-analysis of the deposited data

Results flagged for a closer look

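The difference between the parental and the EV cells was not the same in the 2 lines for 3 genes, by a test of the difference itself (edgeR, adjusted over 17464 genes). The vector effect in SW480 minus that in SW620 was 4.08 for PLXNA2 (adjusted p = 0.00089), 3.91 for SEMA3F (adjusted p = 0.0092) and -7.59 for NTN1 (adjusted p = 0.0029) on the log2 scale. In SW480, both EV libraries lay above both parental ones for PLXNA2 and SEMA3F and below both for NTN1. In SW620 both EV libraries also lay above both parental ones for PLXNA2 (16.1 and 14.2 CPM in EV, 12.2 and 13.9 CPM in parental cells), the EV and parental libraries overlapped for SEMA3F, while NTN1 had 5 reads in EV and 1 in parental cells. The libraries labelled SW480 EV held 2.20 and 2.1% of the level of genes high in parental SW480, and vector and line content cannot be told apart here.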

How the results depend on the processing

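Of 426 values for the 28 called gene differences under other settings, 333 kept direction and call, 92 kept direction only and 1 reversed, UNC5B in SW480 EV against parental SW480 without SW480 EV library II (-2.50), beside 4.38 without library I. The causes were not tested. Counts of the 9 tested genes past the threshold moved by over 1.5 times as follows. With GC and length offsets, alone or with the replicate block, there were 7 in place of 4 for the parental lines, 2 in place of 0 for E2 against untreated ERB cells and 6 in place of 3 for the vector effect of SW480 minus SW620, and the offsets alone gave 2 in place of 1 for SW480 ERB against SW480 EV. With the replicate block alone there were 0 in place of 2 for DMSO against untreated ERB cells, 0 in place of 2 for SW480 EV against SW620 EV and 1 in place of 3 for SW480 ERB against SW620 ERB. The replicate numbers did not mark a pairing with 1 direction. Same-numbered deviations correlated at -0.738 to 0.655 over 28 pairs of groups, over 0.1 in 9 and under -0.1 in 12. A shared factor that runs in opposite directions in different groups was not tested. With 1 line in the fit there were 3 in place of 7 for SW480 EV and 0 in place of 6 for SW480 ERB against parental SW480, 0 in place of 1 for SW480 ERB against SW480 EV, 6 in place of 2 for DMSO, 5 in place of 0 for E2 against DMSO and 2 in place of 0 for E2 against untreated ERB cells. On the FPKM scale there were 0 in place of 2 for SW480 EV against SW620 EV at every setting, 0 (pseudocount 1) or 1 (pseudocount 0.1, or no filter) in place of 3 for SW480 ERB against SW620 ERB, 0 in place of 1 for SW480 ERB against SW480 EV and 1 in place of 0 for E2 against untreated ERB cells (pseudocount 1, or no filter), and 1 in place of 2 for DMSO (pseudocount 0.1, or no filter). Without the low count filter there were 2 in place of 1 for SW480 ERB against SW480 EV, and 1 in place of 0 for E2 against DMSO, E2 against untreated ERB cells and the ERB effect of SW480 minus SW620. DESeq2 gave 2 in place of 1 for SW480 ERB against SW480 EV and 1 in place of 0 for E2 against untreated ERB cells, and RLE size factors gave 0 in place of 2 for DMSO. Of the settings chosen after seeing the data, limma-voom gave 1 in place of 2 for DMSO, and leaving out the 4 transduced SW480 libraries gave 7 in place of 4 for the parental lines, 5 in place of 2 for DMSO and 1 in place of 0 for E2 against untreated ERB cells. Leaving out 1 library gave 4 to 5 for the parental lines, 5 to 9 for SW480 EV and 3 to 7 for SW480 ERB against parental SW480, 1 to 2 for SW480 ERB against SW480 EV, 0 for DMSO, 0 for E2 against either, 0 to 5 for SW480 EV against SW620 EV, 1 for SW480 ERB against SW620 ERB, 2 to 6 for the vector effect and 0 to 1 for the ERB effect of SW480 minus SW620. The share of all genes called moved with these counts: with 1 line it was 4.39% for SW480 EV against parental, 0% for both SW480 ERB comparisons, 48.8% for DMSO, 53% for E2 against DMSO and 20.9% for E2 against untreated ERB cells. With GC and length offsets it was 35.5% for the parental lines, 15.8% for E2 against untreated ERB cells and 25.1% for the vector effect, and without the 4 transduced SW480 libraries 31.9% for the parental lines and 25.4% for DMSO. Of the values for 89 uncalled differences under other settings, 1267 were counted as the same and 60 as moved. Another 77 values became calls in the same direction, such as PLXNB1 between the parental lines with GC and length offsets (adjusted p = 1.7e-04). The remaining 1 reversed into a call: PLXNA1 in SW480 ERB against parental SW480 (0.11) with GC and length offsets (-0.53, adjusted p = 0.041). Depth limits NTN1 in SW620 and SEMA3C, and 2 libraries a group limit every test.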
